A study of Mus musculus with 28 samples.

Results

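The 7 genes Mcoln3, Mlph, Thsd4, Matn2, Mxra7, Hpgds and Ttc28 were measured by RNA sequencing in mouse pancreatic islets. They were chosen by their low log2 expression values in islets labelled βKlf6KO, out of the 14219 genes of the deposited table, and all 7 of 7 were among the 13591 genes that passed the filter on low values. The labelled genotype difference was therefore used in the choice and is described here without a test. The effect of S961, averaged over both genotype labels, was not used and was tested.

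The 28 libraries came from 28 male mice aged 10 to 12 weeks on a mixed C57Bl6 and 129sv background, 1 library per mouse. All mice carried floxed Klf6 alleles, which Cre recombinase can cut out. The βKlf6KO mice (Klf6flox/flox;Ins1Cre/+) carried Cre in one Ins1 allele, so that recombination is directed to β cells, while RNA was taken from whole islets with their other cells. The control mice (CTL, Klf6flox/flox;Ins1+/+) had no Cre. The labels gave 8 βKlf6KO and 8 control mice treated with S961, a peptide antagonist of the insulin receptor, and 6 βKlf6KO and 6 control mice treated with saline. The S961 dose is not in the labels. From each mouse 120 to 150 hand-picked islets were kept overnight in culture before RNA extraction.

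The level of the targeted gene did not separate the labelled genotypes. RNA came from whole islets and reads were counted per gene, so a loss in β cells or of part of the gene was not measured. Klf6, a zinc-finger transcription factor, had a mean of 7.22 ± 0.51 log2 CPM in labelled βKlf6KO S961 libraries and 6.94 ± 0.72 log2 CPM in control S961 libraries (SD, n = 8 each). After saline it had 6.97 ± 0.26 log2 CPM in labelled βKlf6KO libraries and 7.0 ± 0.42 log2 CPM in control libraries (SD, n = 6 each). CPM is a gene's reads scaled to the size of its library. The log2 ratio of Ins1 to Ins2, which a Cre inserted in Ins1 would lower, was -1.94 ± 0.48 in labelled βKlf6KO S961 libraries and -1.31 ± 0.69 in control S961 libraries. After saline it was -1.29 ± 0.27 in labelled βKlf6KO libraries and -1.63 ± 0.77 in control libraries, the opposite order. Genotypes are therefore called labelled genotypes throughout. The libraries held 28868638 to 45001633 reads over the listed genes.

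Each gene has its own setting in cell biology. Mcoln3 encodes mucolipin 3 (TRPML3), a cation channel of endosomes and lysosomes, and Mlph encodes melanophilin, which links Rab27a on pigment granules to the motor myosin Va. Rab27a and its effectors also act at the insulin granules of β cells. Thsd4 encodes an ADAMTS-like protein that binds fibrillin 1 and takes part in microfibril assembly, and Matn2 encodes matrilin 2, an adaptor protein of the extracellular matrix. Mxra7 is named for an association with matrix remodelling. Hpgds encodes the glutathione-dependent prostaglandin D synthase, known from mast cells, megakaryocytes and other haematopoietic cells. Ttc28 encodes a large protein with tetratricopeptide repeats. Klf6 and related factors bind GC-rich and CACCC-type DNA sequences.

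Promoter sequences are shown for the 4 genes that form the pairs varying most closely together across libraries, Mcoln3 with Hpgds and Ttc28 with Thsd4, so that the pairs can be read side by side. They are the 250 bases before the RefSeq transcript start on GRCm38.p6, written 5′ to 3′ on the gene's own strand. The windows are chr3:146121541-146121790 on the plus strand for Mcoln3 and chr6:65144731-65144980 on the minus strand for Hpgds. For Ttc28 the window is chr5:110879553-110879802 on the plus strand. For Thsd4 it is chr9:60511036-60511285 on the minus strand, before the first of its 2 starts. The Mcoln3 and Thsd4 windows lie wholly inside the gene spans given below, and the Hpgds window partly. These 3 windows therefore do not precede the outermost start of the gene, whereas the Ttc28 window ends where its span begins. Capitals mark matches to a GC box (GGGCGG or its complement CCGCCC) and a CACC box (CACCC or its complement GGGTG).
Mcoln3: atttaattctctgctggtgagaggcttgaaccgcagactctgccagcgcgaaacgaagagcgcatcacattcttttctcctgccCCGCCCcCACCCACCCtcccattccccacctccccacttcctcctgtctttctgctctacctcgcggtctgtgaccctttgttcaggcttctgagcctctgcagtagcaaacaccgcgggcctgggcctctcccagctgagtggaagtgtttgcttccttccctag
Hpgds: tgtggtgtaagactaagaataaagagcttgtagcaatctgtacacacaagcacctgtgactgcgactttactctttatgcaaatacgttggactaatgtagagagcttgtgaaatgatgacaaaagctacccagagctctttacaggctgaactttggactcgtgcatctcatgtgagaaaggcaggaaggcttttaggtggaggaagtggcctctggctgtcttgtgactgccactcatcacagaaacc
Ttc28: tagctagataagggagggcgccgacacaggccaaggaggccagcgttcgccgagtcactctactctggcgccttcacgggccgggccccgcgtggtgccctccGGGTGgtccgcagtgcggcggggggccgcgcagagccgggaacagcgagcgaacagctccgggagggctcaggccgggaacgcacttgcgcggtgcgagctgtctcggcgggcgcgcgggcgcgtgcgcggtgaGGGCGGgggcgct
Thsd4: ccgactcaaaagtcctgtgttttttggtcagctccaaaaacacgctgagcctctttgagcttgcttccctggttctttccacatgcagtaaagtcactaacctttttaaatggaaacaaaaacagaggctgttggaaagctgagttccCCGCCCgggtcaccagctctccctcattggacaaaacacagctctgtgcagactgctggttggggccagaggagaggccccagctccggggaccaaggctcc

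The Mcoln3 window held 1 GC box and 2 CACC boxes that overlap by 1 base, whereas the Hpgds window held neither. The Ttc28 window held 1 GC box and 1 CACC box, and the Thsd4 window held 1 GC box and no CACC box. Of the other members, Mlph had 1 GC box and 2 CACC boxes, and Mxra7 had 1 GC box at 1 of its 2 starts. Among all 32851 RefSeq promoters of this length 32.74% held a GC box and 52.01% a CACC box on either strand, so these matches are common, and a match is not a binding site.

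Mcoln3 (chromosome 3, 146117450 to 146141806, plus strand; coordinates here and below are GENCODE M21 on GRCm38) was among the lowest in labelled βKlf6KO islets relative to controls after both treatments. After S961 the lowest, median and highest values were 1.54, 2.35 and 2.95 log2 CPM in labelled βKlf6KO libraries and 2.45, 3.35 and 4.09 log2 CPM in control libraries. These groups overlapped, with 5 of 8 labelled βKlf6KO libraries below the lowest control library. After saline the values were 1.96, 2.40 and 2.75 log2 CPM in labelled βKlf6KO libraries and 3.05, 3.41 and 3.51 log2 CPM in control libraries, and every labelled βKlf6KO library lay below every control library. The log2 difference, labelled βKlf6KO minus control, was -1.05 ± 0.22 (SE) after S961 and -0.96 ± 0.25 after saline, or 48.5% and 51.4% of the control level. In whole islet RNA, fewer cells of a type and less RNA per cell cannot be told apart. Mcoln3 was a low gene, with 103 to 506 reads per library.

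Mlph (chromosome 1, 90915085 to 90951142, plus strand) had a smaller estimated difference between the labelled genotypes after S961 than after saline. After S961 its lowest, median and highest values were 2.69, 3.11 and 3.50 log2 CPM in labelled βKlf6KO libraries, against 2.91, 3.56 and 3.86 log2 CPM in control libraries. These groups overlapped, and 2 of 8 labelled βKlf6KO libraries lay below the lowest control library. After saline they were 2.18, 2.82 and 3.05 log2 CPM in labelled βKlf6KO libraries, against 3.34, 3.54 and 3.96 log2 CPM in control libraries, with no overlap. The difference was -0.44 ± 0.14 (SE) after S961 and -0.83 ± 0.16 after saline. The S961 response in labelled βKlf6KO islets minus that in controls was 0.39, with a 95% confidence interval of -0.05 to 0.83 that includes 0.

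Thsd4 (chromosome 9, 59966931 to 60522046, minus strand) had group SDs of 0.20 to 0.33 log2 CPM. After S961 the lowest, median and highest values were 3.04, 3.86 and 4.18 log2 CPM in labelled βKlf6KO libraries and 4.08, 4.50 and 5.01 log2 CPM in control libraries. Here 7 of 8 labelled βKlf6KO libraries lay below the lowest control. After saline the values were 3.50, 3.70 and 3.93 log2 CPM in labelled βKlf6KO libraries and 4.24, 4.71 and 4.93 log2 CPM in control libraries, without overlap. Its log2 difference was -0.71 ± 0.14 (SE) after S961 and -0.96 ± 0.16 after saline, or 61.3% and 51.5% of the control level.

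Matn2 (chromosome 15, 34306677 to 34436273, plus strand) was the member with the smallest saline difference. After S961 its lowest, median and highest values were 3.43, 3.82 and 4.31 log2 CPM in labelled βKlf6KO libraries and 4.08, 4.29 and 4.87 log2 CPM in control libraries, with 7 of 8 labelled βKlf6KO libraries below the lowest control. After saline they were 3.90, 4.11 and 4.34 log2 CPM in labelled βKlf6KO libraries and 4.0, 4.40 and 4.65 log2 CPM in control libraries, and 1 of 6 labelled βKlf6KO libraries lay below the lowest control. The S961 difference was -0.52 ± 0.12 (SE), or 69.5% of the control level. The saline difference of -0.26 had a 95% confidence interval of -0.55 to 0.02, which includes 0, so a lower level after saline was not resolved for Matn2.

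Mxra7 (chromosome 11, 116803062 to 116828046, minus strand) had the largest change of the labelled genotype difference with treatment among the members. After S961 its lowest, median and highest values were 2.20, 2.40 and 2.54 log2 CPM in labelled βKlf6KO libraries and 2.27, 2.74 and 3.21 log2 CPM in control libraries. These groups overlapped, with 1 of 8 labelled βKlf6KO libraries below the lowest control. After saline they were 1.88, 2.18 and 2.39 log2 CPM in labelled βKlf6KO libraries and 2.73, 3.09 and 3.44 log2 CPM in control libraries, without overlap. All 8 labelled βKlf6KO S961 libraries lay above the labelled βKlf6KO saline mean, while 7 of 8 control S961 libraries lay below the control saline mean. The genotype difference was -0.37 ± 0.12 (SE) after S961 and -0.96 ± 0.14 after saline. The response in labelled βKlf6KO islets minus that in controls was 0.59 (95% confidence interval 0.21 to 0.97), a description, since the saline libraries that set it also served in the choice.

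Hpgds (chromosome 6, 65117293 to 65144908, minus strand) had the widest control groups of the members, with an SD of 0.69 log2 CPM after S961 and 0.52 after saline. After S961 the lowest, median and highest values were 2.76, 3.39 and 3.93 log2 CPM in labelled βKlf6KO libraries and 3.23, 4.35 and 5.45 log2 CPM in control libraries, with 3 of 8 labelled βKlf6KO libraries below the lowest control. After saline they were 3.0, 3.43 and 3.73 log2 CPM in labelled βKlf6KO libraries and 3.86, 4.20 and 5.13 log2 CPM in control libraries, without overlap, though the nearest libraries lay close, at 3.73 in labelled βKlf6KO and 3.86 in control. The difference was -0.93 ± 0.25 (SE) after S961 and -0.97 ± 0.29 after saline. Without the 3 libraries that stand apart on the main axis of variation, described below, it was -0.65 after S961 and -0.82 after saline.

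Ttc28 (chromosome 5, 110879803 to 111289780, plus strand) was the member with most reads, 564 to 3990 per library. After S961 its lowest, median and highest values were 4.21, 4.80 and 5.11 log2 CPM in labelled βKlf6KO libraries and 4.97, 5.58 and 6.77 log2 CPM in control libraries, with 6 of 8 labelled βKlf6KO libraries below the lowest control. After saline they were 4.40, 4.67 and 5.31 log2 CPM in labelled βKlf6KO libraries and 5.20, 5.72 and 6.29 log2 CPM in control libraries, with 1 labelled βKlf6KO library inside the control range. The difference was -0.94 ± 0.20 (SE) after S961 and -1.01 ± 0.23 after saline, or 52.0% and 49.6% of the control level.

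**Figure D1:**
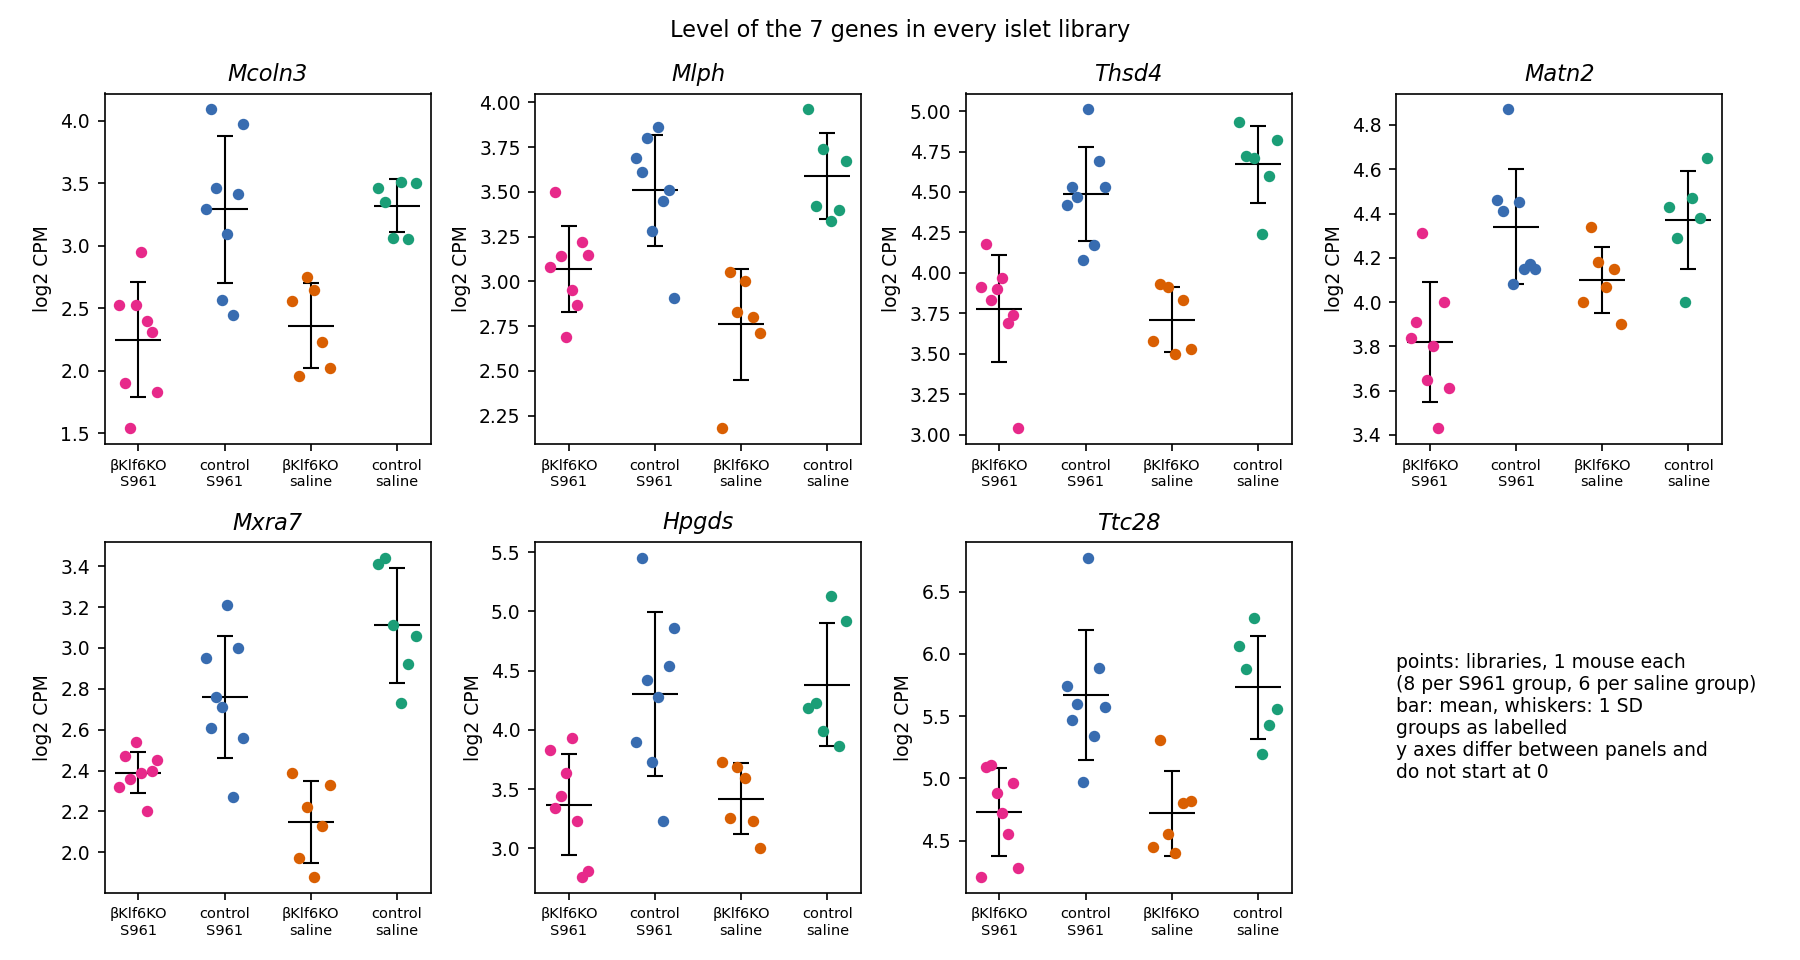
Level of each of the 7 genes in log2 CPM (y axis, a different range in each panel) in the 28 libraries, by labelled group, with the mean as a bar and whiskers of 1 SD. In every panel both control groups have a higher mean than both labelled βKlf6KO groups, and after saline the points of 5 of the 7 genes do not overlap.

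Read across the members, 0 of 7 had every labelled βKlf6KO library below every control library after S961, where 0.28% of all genes tested did so. After saline 5 of 7 did (Mcoln3, Thsd4, Mxra7, Mlph and Hpgds), where the share of all genes was 1.64%, and 0 of 7 did after both treatments (0.0515%). The difference was -0.8 or lower on the log2 scale in 3 of 7 after S961 (0.294% of all genes) and in 6 of 7 after saline (0.478%). It was negative in all 7 after both, as in 47.6% of all genes after S961 and 50.1% after saline. Since low values in labelled βKlf6KO islets were the reason for choosing these genes, these counts describe the choice. Every labelled βKlf6KO library lay below the control mean of its treatment in all 7 genes, which also describes the choice. The share of all genes tested with that pattern was not computed. The median log2 difference of the members was -0.71 after S961 and -0.96 after saline, beside 0.02 and 0.00 for all genes tested.

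The group means put both control groups above both labelled βKlf6KO groups in all 7 genes. This order and the steps between groups also describe the choice, and no share of all genes was computed for them. The step between the lower control group and the higher labelled βKlf6KO group was larger than the larger SD of those groups in 6 genes, and in Matn2 it was 0.24 against an SD of 0.26. Within a labelled genotype, the S961 and saline means lay within 1 SD of each other in most members. The steps beyond it were those of Mxra7 in both labelled genotypes and of Matn2 in labelled βKlf6KO islets, at 0.29 against an SD of 0.27.

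Set per kilobase of exon, the members were expressed at similar levels. In labelled βKlf6KO saline libraries the geometric mean ran over 0.938 CPM per kilobase for Thsd4 to 2.75 for Matn2, and in control saline libraries over 1.82 for Thsd4 to 4.32 for Ttc28. For scale, Klf6 had 28.5 CPM per kilobase in labelled βKlf6KO saline libraries and 29.2 in control saline libraries.

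The place of the members among the called genes describes the rule, which used these comparisons. In limma 5 of 7 were among the genes lower after S961 (2.01% of all genes tested) and 5 of 7 among those lower after saline (0.692%), with 4.36% and 2.78% of all genes called in either direction. Mcoln3, Ttc28 and Thsd4 were in both sets, Hpgds and Matn2 in the S961 set, and Mxra7 and Mlph in the saline set. Among the 244 lower genes with at least 4 CPM after S961, Mcoln3, Ttc28 and Hpgds held the 3 lowest places, followed by Galr1 at -0.91 and Sytl4, Aldh5a1 and Prlr at -0.90, which are no members. Thsd4 was in place 23. Matn2 was the last member, in place 50 at -0.52, and Robo2, just outside, was also at -0.52. Among the 77 after saline, T2 at -1.04, mt-Rnr2 at -0.99 and Aldh5a1 at -0.84, which are no members, held places 1, 3 and 7. Mlph was the last member in order, in place 8 at -0.83, and the next genes outside were Cnnm1 at -0.82, Hspa12a at -0.81 and Spock1 at -0.81.

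The labels name sequencing lanes 4, 5, 6 and 7, and each lane held libraries of all 4 groups. The labelled βKlf6KO minus control difference was negative in 28 of 28 combinations of gene and lane after S961 and in 27 of 28 after saline. The exception was Matn2 after saline in lane 5, at 0.26. A lane held 2 libraries of each labelled genotype after S961, and 1 of one and 2 of the other after saline. As the genes were chosen on this difference in the same libraries, these counts describe the choice. Across lanes Hpgds ran over -1.92 to -0.08 after S961, its widest spread, while Mxra7 ran over -1.03 to -0.83 after saline.

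S961 itself was the comparison the choice had not used. Averaged over both labelled genotypes, the S961 minus saline difference passed the test in 0 of the 7 members, and limma called 0 of all genes tested (0.0%). At an unadjusted p under 0.05 it had 129 genes (0.949%), 0 of them members, and voom weights on whole reads also called 0. That share is smaller than a threshold of 0.05 would give with no effect at all. The 0 calls therefore do not show that S961 had no effect. In 6 of the 7 members the estimate was negative and in Mlph positive.

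For Mcoln3 the averaged S961 effect was -0.07 ± 0.16 (SE; 95% confidence interval -0.41 to 0.26, limma adjusted p = 0.953). Mlph had the one positive value, 0.12 ± 0.11 (-0.10 to 0.34, limma adjusted p = 0.953). Matn2 had the value farthest from 0, at -0.16 ± 0.09 (-0.34 to 0.03, limma adjusted p = 0.953). The other 4 genes lay between -0.06 and -0.03, with limma adjusted p from 0.953 to 0.97. The 95% intervals reached 0.19 to 0.39 to each side of the estimate. An averaged S961 effect on the scale of the labelled genotype differences therefore lay outside the interval in every member other than Matn2 after saline. Opposite responses of the labelled genotypes cancel in this average. For Mxra7 the S961 minus saline difference was 0.24 (-0.03 to 0.51) in labelled βKlf6KO islets and -0.35 (-0.62 to -0.08) in controls. Matn2 had -0.29 (-0.55 to -0.02) in labelled βKlf6KO islets and -0.03 (-0.29 to 0.24) in controls. These values are descriptions without a test. Within lanes, the averaged S961 difference took both signs in every member.

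**Figure D2:**
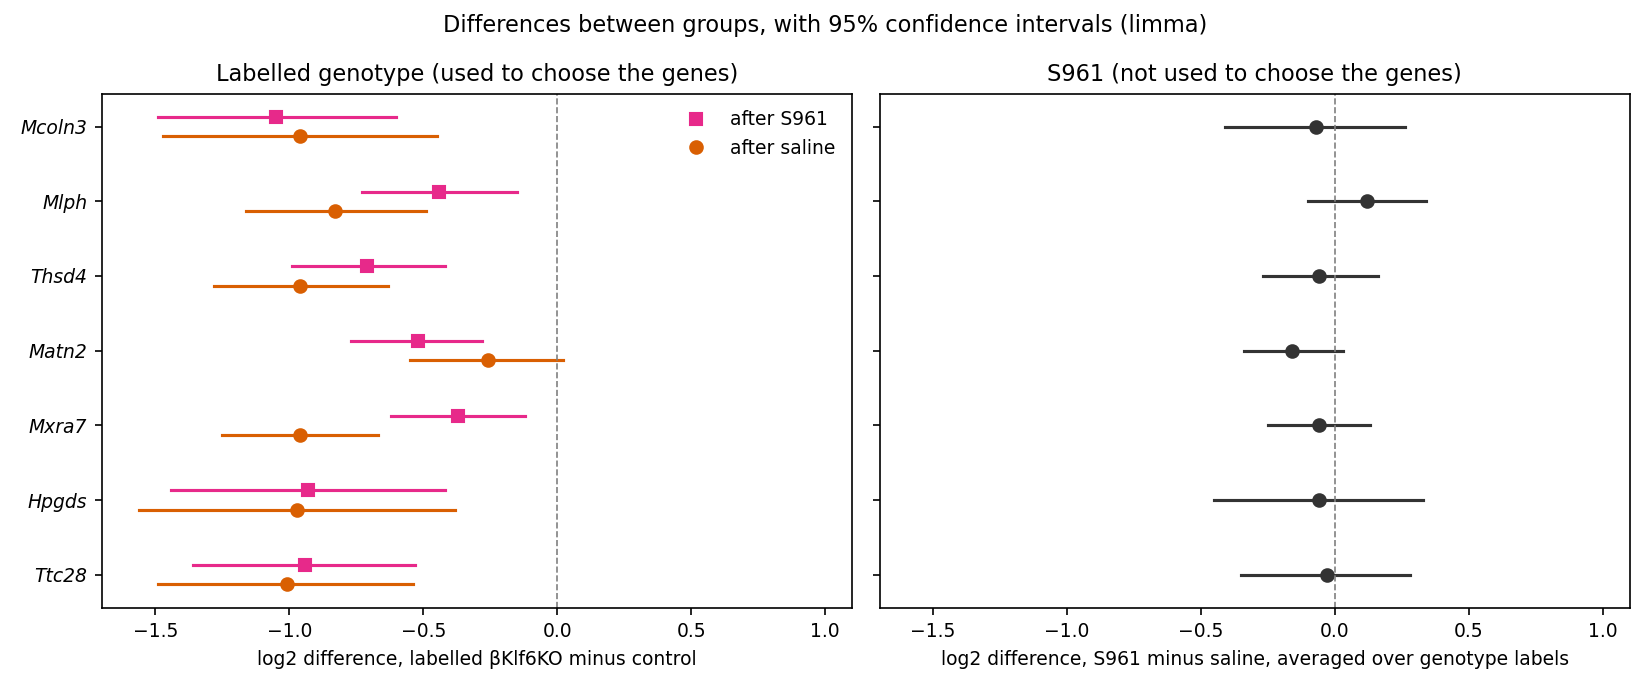
Log2 differences of the 7 genes with 95% confidence intervals from limma; the left panel gives labelled βKlf6KO minus control after S961 (squares) and after saline (circles), and the right panel gives S961 minus saline averaged over the labelled genotypes. All differences on the left are negative, with the saline interval of Matn2 reaching 0.02, and all intervals on the right include 0.

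With the 4 group means taken out, the 28 libraries still varied together along 1 main axis. This first principal component took 62.1% of the variance, and the second took 10.4%. Genes' correlation with it ran with the GC content of their transcripts (Spearman rho -0.82 over 13584 genes, which are not independent replicates). Control S961 replicate 2, control saline replicate 4 and control S961 replicate 8 had the highest scores, 118.5, 97.1 and 61.8. Whether GC content moves the members was not tested.

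The members split along this axis. Hpgds, whose longest transcript has 41.7% GC, in the low 11.9% of genes, had a Pearson r of 0.81 with the component, and Mcoln3, at 44.3% GC, had 0.67. Ttc28, at 56.7% GC, had -0.47, and Mlph, at 54.6% GC, had -0.44. Mxra7 at -0.32, Thsd4 at -0.08 and Matn2 at 0.04 were closer to 0. Without the 3 libraries of highest score the labelled genotype differences ran over -0.99 (Ttc28) to -0.43 (Mxra7) after S961 and -1.12 (Ttc28) to -0.24 (Matn2) after saline, all negative.

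Among the 21 pairs of members 3 had an r above 0.5 and 5 an r below 0. The highest was Mcoln3 with Hpgds, at a Pearson r of 0.78 and a Spearman rho of 0.81. It was 0.71 without the 3 libraries and 0.56 with the first component also taken out. The next was Ttc28 with Thsd4, at 0.71 and a rho of 0.65. That value was 0.69 without the 3 libraries and 0.76 with the component taken out. The third was Ttc28 with Mxra7, at 0.54. These 28 libraries share depth, lanes and the component, and the correlations are descriptions without a test.

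**Figure D3:**
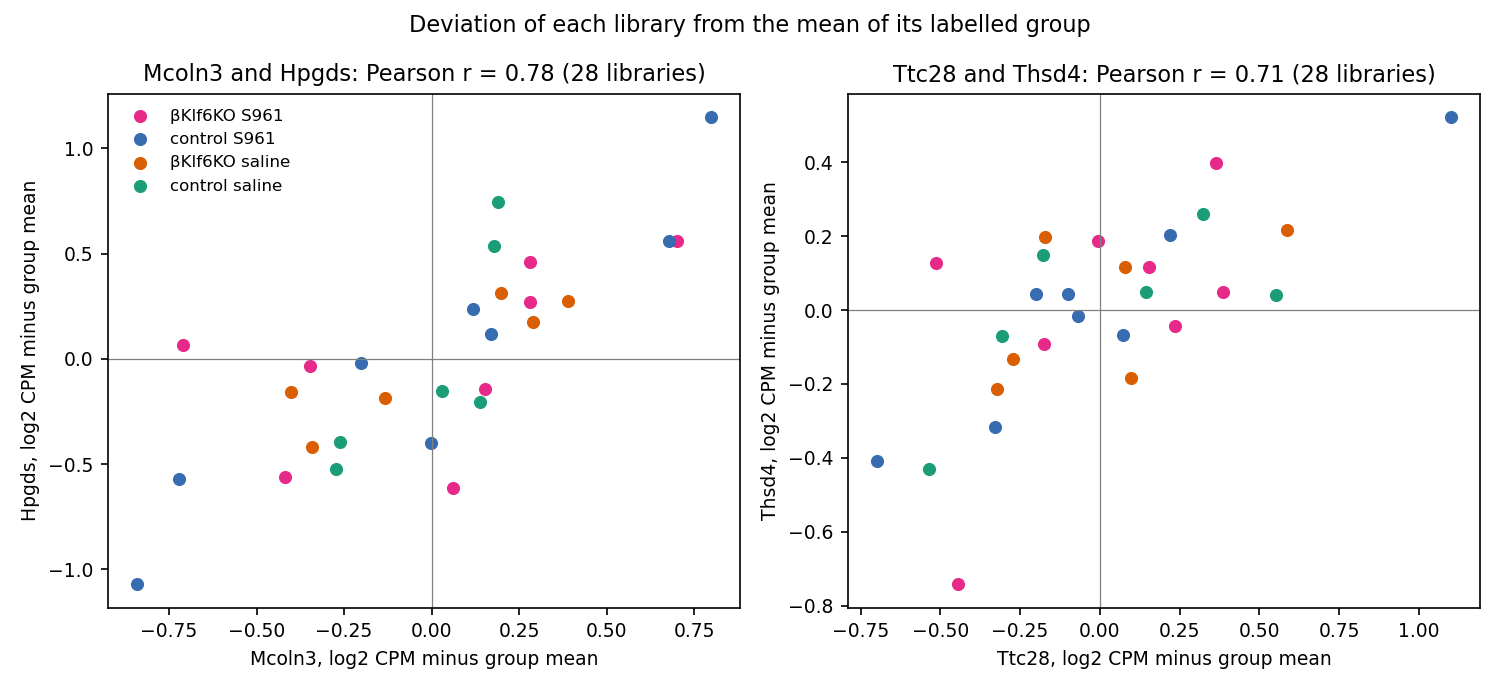
Deviation of each library from its labelled group's mean, in log2 CPM, for Hpgds (y axis) against Mcoln3 (x axis) on the left and Thsd4 (y axis) against Ttc28 (x axis) on the right; each point is 1 library, coloured by labelled group. Both clouds slope upwards (r = 0.78 and 0.71), and libraries of all 4 groups lie along them.

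Some cell type markers also differed between the labelled genotypes, and their part in the members' values was not tested. Of 14 β-cell markers 6 were lower and 0 higher in labelled βKlf6KO islets after S961, and 3 were lower and 0 higher after saline (limma). A sum of CPM gives most weight to the markers with most reads, so it does not show each marker. Of all 14 markers, 13 had a negative log2 difference after S961 (median -0.45) and 11 after saline (median -0.3). Their summed level was 7.23e+04 to 1.58e+05 CPM in labelled βKlf6KO S961 libraries, against 6.09e+04 to 2.28e+05 CPM in control S961 libraries. After saline it was 1.01e+05 to 1.84e+05 CPM in labelled βKlf6KO libraries and 6.08e+04 to 1.79e+05 CPM in control libraries, so these ranges overlapped.

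Of 10 proliferation markers 5 were higher in labelled βKlf6KO islets after S961 and 10 after saline. Their sum was 43.4 to 78.1 CPM in labelled βKlf6KO S961 libraries and 6.78 to 112 CPM in control S961 libraries. After saline it was 90.6 to 151 CPM in labelled βKlf6KO libraries and 6.21 to 34.0 CPM in control libraries, without overlap. Of 10 macrophage markers 0 were called after S961, with 6 at an unadjusted p under 0.05, and 3 were higher after saline, with sums of 97.7 to 613 CPM in labelled βKlf6KO saline libraries and 71.8 to 117 CPM in control saline libraries. Of 10 fibroblast and stellate cell markers 4 were higher after S961 and 2 after saline. Their sum was 80.7 to 152 CPM in labelled βKlf6KO S961 libraries and 46.2 to 101 CPM in control S961 libraries, and 44.9 to 187 CPM in labelled βKlf6KO saline libraries and 37.9 to 102 CPM in control saline libraries, so the ranges overlapped after both treatments. Of the 10 mast cell and megakaryocyte markers listed because of Hpgds, Kit was the one tested, at 0.43 (limma adjusted p = 0.0459) after S961 and -0.09 (limma adjusted p = 0.854) after saline. The others were not among the genes of the deposited table, so they could not be tested. Among 6 lymphocyte markers tested 0 were called after S961, with 0 at an unadjusted p under 0.05. After saline 2 were higher, with 5 at an unadjusted p under 0.05 and a median log2 difference of 3.27. Over the 7 lymphocyte markers in the deposited table the saline sum was 5.02 to 90.1 CPM in labelled βKlf6KO libraries. In control saline libraries it was 6.15 to 11.4 CPM, so these ranges overlapped. Of 8 α-cell markers 1 was higher and 1 lower after S961, and 1 was higher after saline. Of 7 ductal markers 1 was higher after S961, with 4 at an unadjusted p under 0.05. After saline 0 were called, with 0 at an unadjusted p under 0.05. The δ-cell, PP-cell, acinar, endothelial and Schwann cell lists had 0 calls in limma after either treatment, with 5 acinar and 1 Schwann cell marker at an unadjusted p under 0.05 after S961 and 1 endothelial marker after saline.

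Within groups the members again differed in how they ran with these markers. With the mean of the β-cell markers, Mlph had an r of 0.71, Ttc28 0.68 and Thsd4 0.43, while Mcoln3 had -0.60 and Hpgds -0.58. With the mean of the proliferation markers r ran over -0.61 for Mxra7 to -0.27 for Mlph. The Spearman rho was weaker for most members and ran over -0.50 for Mxra7 to -0.23 for Matn2. The share of all genes with a negative r was not computed, so the sign is not read as a trait of the members. With Klf6 itself Mcoln3 had 0.55 and Hpgds 0.38, whereas Ttc28 had -0.48 and Mlph -0.46. Klf6 had an r of 0.53 with the first component, and these members ran with that component in the same directions. A link to Klf6 apart from the component was not tested.

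**Figure D4:**
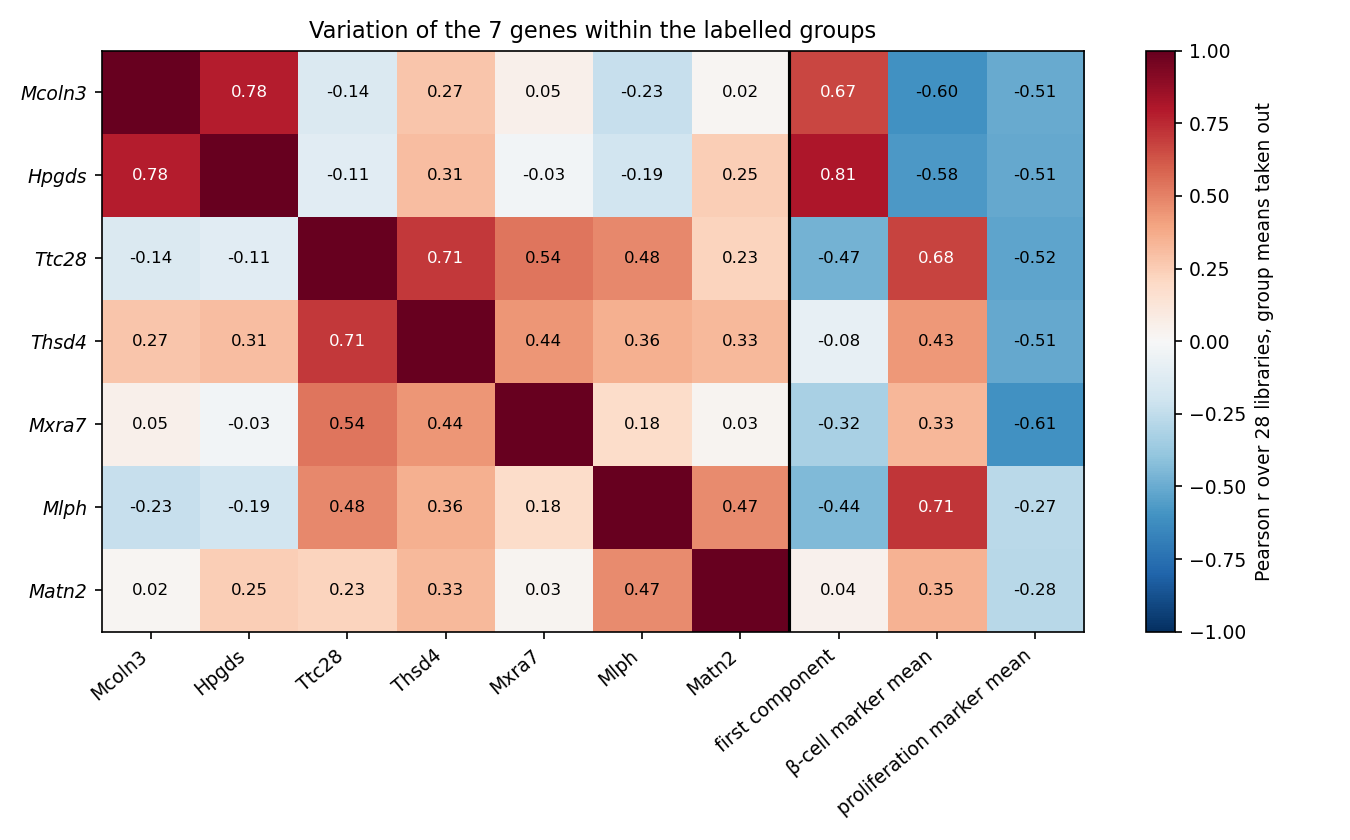
Pearson r over 28 libraries, with the 4 group means taken out, among the 7 genes and between each gene and the first principal component, the mean of the β-cell markers and the mean of the proliferation markers (red positive, blue negative). Mcoln3 and Hpgds form a pair at 0.78 with negative values for the β-cell marker mean, while Ttc28 and Mlph have positive values for it.

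The genes with the pattern most like each member were sought among 10107 genes with a mean of at least 2 log2 CPM, again over the 28 libraries with group means taken out. Hpgds had the closest neighbours, Zfp664 at an r of 0.93, Recql at 0.92 and Dcp2 at 0.92, and Rpl13a was the most opposed, at -0.91. These 4 genes also followed the first component, at 0.91, 0.90, 0.89 and -0.85, as Hpgds did at 0.81. Mcoln3 was nearest to Utp15 at 0.85, Lamp2, a lysosome membrane protein, at 0.84 and Met at 0.84, with Ssr4 opposed at -0.85. Their own r with the component was 0.72 for Utp15, 0.92 for Lamp2, 0.79 for Met and -0.81 for Ssr4, beside 0.67 for Mcoln3. Ttc28 was nearest to Myh10, a non-muscle myosin heavy chain, at 0.88, Arfgef2 at 0.86 and Tmem206 at 0.86, with Acadl opposed at -0.90. In that order they had -0.62, -0.40, -0.44 and 0.67 with the component. Thsd4 was nearest to Mdc1 at 0.82, Tbc1d5 at 0.81 and Acaca at 0.81, with Eef1b2 opposed at -0.72. Their values with the component were -0.10, 0.11, 0.08 and 0.415. Mlph was nearest to Desi1 at 0.78, Lman2 at 0.76 and Ppme1 at 0.75, with Gna14 opposed at -0.73. These had -0.69, -0.85, -0.72 and 0.45 with the component. Mxra7 was nearest to Psd4 at 0.70, Ikzf4 at 0.67 and Nup93 at 0.67, with Arhgap11a opposed at -0.72. With the component they had -0.74, -0.34, -0.58 and 0.425. Matn2 had the loosest neighbours, Pdia4 at 0.66, Calr at 0.64 and Ccdc149 at 0.64, with Gpt2 opposed at -0.57. The component gave these 0.34, 0.21, -0.33 and -0.26. Pdia4 and Calr both encode proteins that help folding in the endoplasmic reticulum.

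Few of the other genes around Mcoln3 passed the test between labelled genotypes. Of 4 other mucolipin and two-pore channel genes 3 were tested, and limma called 0, with 1 at an unadjusted p under 0.05 after S961 and 0 after saline. Voom weights also called 0. Over all genes tested 22.9% had such an unadjusted p after S961 and 14.4% after saline. The summed level of these channels was 26.7 to 46.9 CPM in labelled βKlf6KO S961 libraries and 14.6 to 55.6 CPM in control S961 libraries.

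Of 22 lysosome genes 1 was higher and 1 lower in labelled βKlf6KO islets after S961, and 0 were higher and 1 lower after saline. Of all genes tested 2.35% were higher and 2.01% lower after S961, and 2.09% were higher and 0.692% lower after saline. Ctsl, a lysosomal protease, had a log2 difference of 0.63 ± 0.17 (SE) after S961 (limma adjusted p = 0.0346). Lamp1, a lysosome membrane protein, had -0.23 ± 0.07 after S961 (limma adjusted p = 0.0477) and -0.31 ± 0.08 after saline (limma adjusted p = 0.024). Ctsl lost its call without labelled βKlf6KO S961 replicate 5, 6, 7 or 8 or control S961 replicate 2, 3 or 5, at adjusted p of 0.0552 to 0.0844. Lamp1 after S961 kept its call in 10 of 40 alternatives. Lamp1 after saline lost it without labelled βKlf6KO saline replicate 1 or 6 or control saline replicate 1, 2, 3 or 6, at adjusted p of 0.0524 to 0.0752, and was -0.17 (adjusted p = 0.546) with quantile normalization.

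Around Mlph, 2 of 11 tested Rab27 effectors and partners were lower after S961 and 1 after saline, beside 2.01% and 0.692% of all genes tested. Sytl4, which encodes granuphilin, a Rab27 effector of insulin granules that was also on the β-cell list, had a mean of 9.03 ± 0.34 log2 CPM in labelled βKlf6KO S961 libraries and 9.94 ± 0.43 in control S961 libraries. Its difference was -0.90 ± 0.16 (SE, limma adjusted p = 0.00511) after S961. After saline Sytl4 had 9.14 ± 0.25 log2 CPM in labelled βKlf6KO libraries and 9.88 ± 0.21 in control libraries, a difference of -0.75 ± 0.19 (adjusted p = 0.0276). Exph5, another Rab27 effector, had -0.51 ± 0.14 (adjusted p = 0.0375) after S961. The saline call of Sytl4 was lost without labelled βKlf6KO saline replicate 4, 5 or 6 or control saline replicate 1, 4 or 6, at adjusted p of 0.0504 to 0.0928. Exph5 lost its call without labelled βKlf6KO S961 replicate 3, 6, 7 or 8 or control S961 replicate 2, 3, 5 or 8, at adjusted p of 0.05 to 0.0856. For scale, the Mlph differences were -0.44 after S961 and -0.83 after saline. In a fit of only the 2 S961 groups, Sytl4 had an adjusted p of 0.0583 and Exph5 one of 0.134.

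The lists of matrix genes around Thsd4 and Matn2 had positive median differences, where these members had negative ones. Of 9 tested fibrillin microfibril genes 2 were higher and 0 lower after S961, and 0 were called after saline, with 1 at an unadjusted p under 0.05 and 0 called with voom weights. Over the alternatives other than the first component as a covariate 0 to 3 were higher after S961 and 0 to 1 after saline. The list's median log2 difference was 0.82 after S961 and 0.43 after saline, beside -0.71 and -0.96 for Thsd4. Fbn1, the fibrillin that the Thsd4 protein binds, had 3.09 ± 0.58 log2 CPM in labelled βKlf6KO S961 libraries and 1.97 ± 0.52 in control S961 libraries, a difference of 1.12 ± 0.29 (SE, limma adjusted p = 0.0314). Fbn1 lost its call without labelled βKlf6KO S961 replicate 5, 6 or 7 or control S961 replicate 2 or 5, at adjusted p of 0.0587 to 0.0691. Mfap5, at about 1 CPM in labelled βKlf6KO S961 libraries, had 1.59 ± 0.35 (adjusted p = 0.0171), which was 0.34 (adjusted p = 0.119) with values under 1 CPM set to 1 CPM and 1.05 (adjusted p = 0.165) with quantile normalization.

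Of 8 tested matrilin and other matrix adaptor genes 1 was higher after S961 and 0 were called after saline, with 3 at an unadjusted p under 0.05 after each treatment. Voom weights called 1 after S961 and 0 after saline, and over the alternatives other than the first component as a covariate 1 to 2 were higher after S961 and 0 to 3 after saline. Bgn, the proteoglycan biglycan, had 4.62 ± 0.34 log2 CPM in labelled βKlf6KO S961 libraries and 3.45 ± 0.57 in control S961 libraries, a difference of 1.17 ± 0.27 (SE, limma adjusted p = 0.0187). The list's median was 0.89 after S961 and 0.65 after saline, beside -0.52 and -0.26 for Matn2. Dcn of this list was also on the fibroblast and stellate cell list, whose calls and overlapping sums are given above.

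Around Hpgds, 0 of 12 tested prostaglandin genes passed the limma test in either labelled genotype comparison, with 4 at an unadjusted p under 0.05 after S961 and 5 after saline. Voom weights called 0 in each, and over the alternatives other than the first component as a covariate up to 2 were higher after S961 and up to 3 after saline. Their median log2 difference was 0.33 after S961 and 0.35 after saline, whereas Hpgds was at -0.93 and -0.97. Their sum was 77.8 to 128 CPM in labelled βKlf6KO S961 libraries and 47.5 to 92.3 CPM in control S961 libraries, and 84.0 to 121 CPM in labelled βKlf6KO saline libraries and 74.7 to 90.6 CPM in control saline libraries. In none of the 6 lists of related genes did the averaged S961 effect pass the test for any gene, with 2 genes at an unadjusted p under 0.05.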

How the data were processed

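RNA of islets from 28 mice was sequenced as 125-base single reads from stranded mRNA libraries with RNA quality numbers of 8.2 to 9.3, per the labels' protocols. The submitters' processing notes name STAR 2.5.3a, HTSeq 0.9.1, edgeR and the build GRCm38. The strand setting of the counting is not given in these sources, and genes that overlap may hold each other's reads. The deposited values are log2 CPM as the authors scaled them, and no further scaling was applied. Their form is log2 of reads plus 0.5 over a scaled library size, and inverting it gave whole reads within 0.05 for 100% of values. A count of 0 allows up to 3 reads, or 0.0685 to 0.105 CPM, a limit for counting error only. All columns matched a library.

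The filter was 1 CPM or more in 6 or more libraries (13591 genes kept, 628 removed). Of the table's IDs 14210 were found in GENCODE M21, and 820 rows had no symbol. The model was 4 group means over the 28 libraries in limma 3.58.1 (R 4.3.3), with moderated variances that follow an intensity trend. Tests were two-sided, and the threshold was a Benjamini-Hochberg adjusted p of 0.05 over all genes tested. Since 1 library stands for 1 mouse, p-values set a difference against the spread between libraries. That spread holds the mice, the culture and the library preparation together. The S961 effect is the mean of the S961 minus saline differences of both labelled genotypes. It is uncorrelated with the genotype differences used to choose the members if both labelled genotypes have equal variance, as the model takes. Observed SDs were not all equal. For Mxra7 after S961 they were 0.10 log2 CPM in labelled βKlf6KO and 0.30 in control libraries. The fit was tested on simulated data. With voom weights on the recovered reads, limma called 680 genes between labelled genotypes after S961 and 390 after saline, beside 593 and 378 without weights.

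The members, the related lists and the marker lists were chosen with earlier results of these data known. Named genes were the members, Klf6, Ins1 and Ins2, the 3 nearest genes and the most opposed gene of each member, called genes of the related lists (up to 3 per comparison) and the genes just outside the choice. Kit was named after its value was seen. Promoters are from RefSeq (GRCm38.p6), where 6 of 7 members matched. Alternatives were other scalings, filters, a floor, voom weights, no trend, lane, replicate number or the first component as a covariate, only the groups compared, and libraries left out. No 2 libraries of a group agreed within sampling noise (86 pairs, chi-square per degree of freedom at least 32.1).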

Additional observations from a re-analysis of the deposited data

Results flagged for a closer look

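Thsd4 in labelled βKlf6KO S961 replicate 8 was at 3.04 log2 CPM, below the other 7 libraries of its group, and its gap to the next library was large for the range of the group. It was 1 of 28 combinations of gene and group examined, and chance alone flags about 1 in 20. Without that library the Thsd4 difference between labelled βKlf6KO and control islets after S961 was -0.601 on the log2 scale.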

How the results depend on the processing

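The labelled genotype differences of the 7 members were recomputed 560 times over both treatments and 40 alternatives, and 560 were negative. The members were chosen for low values in labelled βKlf6KO islets, so this sign describes the choice. Many alternatives also cannot move the estimate, such as leaving out a library of the other treatment or changing the filter. None of the recomputed differences moved by more than the gene's SD within groups pooled over the 4 groups. 4 moved by more than their SE. With quantile normalization Mxra7 was -0.546 after S961, beside -0.369, and -1.10 after saline, beside -0.957. After S961, without the 3 libraries of highest component score Hpgds was -0.646, beside -0.93, and Mcoln3 was -0.799, beside -1.05. The S961 effect of a member passed the limma test in none of 39 alternatives, where the lowest adjusted p was 0.248 (Matn2). Its sign turned, within an interval that includes 0, for Mxra7 with quantile normalization (0.00607), and over single libraries left out for Ttc28 (range -0.11 to 0.0283) and Hpgds (-0.145 to 0.0132). The count of genes called for S961 was 0 in each alternative, including every single library left out (0 to 0), other than with the first component as a covariate (1923). For labelled genotype after S961 the count of 593 became 395 with quantile normalization, 6933 with the first component and 35 with only the 2 groups compared, and 177 to 817 with single libraries left out. For labelled genotype after saline the count of 378 became 117 with a filter at 5 CPM, 4516 with the first component, 690 without the 3 libraries of highest component score and 214 to 532 with single libraries left out. The component was built from the values with group means taken out, so it takes out spread within groups by construction; the cause of the other shifts was not tested. The 5 CPM filter tests fewer genes. Replicate numbers did not pair the libraries: 13 of 38 same-numbered pairs had a correlation over 0.1 (range -0.71 to 0.85). With a replicate block the counts were 0 for S961, 614 for labelled genotype after S961 and 354 after saline. Depth limits Mcoln3 and Mxra7 most, at 103 and 128 reads in their lowest libraries.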
